A study of Mus musculus with 6 samples.

Results

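Fatty acid synthesis, elongation and activation were examined through 54 protein-coding genes that were chosen by gene symbol, out of 55487 genes (21936 of them protein-coding) in the count table. The list held the enzymes that make palmitate in the cytosol, the acetyl-CoA synthetases (*Acss*), the elongases (*Elovl*) with the other enzymes of the elongation cycle, the desaturases (*Fads* and *Scd*), the long-chain acyl-CoA synthetases (*Acsl* and *Acsbg*), the acyl-CoA thioesterases (*Acot*) and the carnitine palmitoyltransferases (*Cpt*). Expression was measured by RNA sequencing in cultured mPASMCs (smooth muscle cells of the mouse pulmonary artery), with 3 libraries from cells given the control siRNA si-NC (genotype label Control) and 3 from cells given si-*Snhg18* (genotype label *Snhg18* knockdown), an siRNA against the long noncoding RNA *Snhg18*. Both groups came from purchased primary mPASMCs that were transfected by lipofection in the study, which asked which genes respond to loss of *Snhg18*. Strain, age, oxygen level and the time from transfection to harvest were not given in the sources used here, and neither was whether the libraries of a group came from separate cultures, so the p-values measure the spread between these libraries, which may be technical.

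Cytosolic fatty acid synthesis starts from citrate, which is split to acetyl-CoA, carboxylated to malonyl-CoA and built into palmitate by fatty acid synthase. Elongases at the endoplasmic reticulum lengthen the chain in a cycle of condensation, reduction, dehydration and a further reduction, and desaturases add double bonds. Acyl-CoA synthetases activate fatty acids for membrane lipids, storage or oxidation, thioesterases reverse that step, and the carnitine palmitoyltransferases pass acyl groups to mitochondria. In vascular smooth muscle these enzymes supply the membranes of growing cells, and many of them are transcribed under the control of sterol regulatory element-binding proteins (SREBPs).

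The libraries held 18097718 to 25988746 counted reads, si-*Snhg18* 3 being the smallest, and a count of 3 reads corresponded to 0.115 to 0.166 CPM (counts scaled to a common library size). Levels are given as CPM normalized by TMM, and levels of different genes are compared only as FPKM, which also divides by the exon length in the table. The targeted gene *Snhg18* was at 23.5, 22.4 and 22.2 CPM in si-NC and at 10.6, 11.2 and 9.97 CPM in si-*Snhg18*, a log2 fold change of -1.10 (SE 0.10, adjusted p = 0.00727). Leaving out si-NC 1 raised its adjusted p to 0.0646, leaving out si-NC 3 raised it to 0.0687, and leaving out si-*Snhg18* 3 to 0.0689. Smooth muscle markers were present in all libraries (*Acta2* 574 to 1041 CPM), and their summed level was 1742 to 1876 CPM in si-NC and 1198 to 1845 CPM in si-*Snhg18*. In bulk RNA, fewer cells of a type and less RNA per cell cannot be told apart.

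Of the 54 genes, 43 passed the filter on low counts and were tested. The other 11 were *Acss1*, *Elovl2*, *Elovl3*, *Elovl7*, *Scd3*, *Acsbg2*, *Acot3*, *Acot5*, *Acot10*, *Acot12* and *Cpt1b*. No read was counted for 4 of them (*Elovl3*, *Acsbg2*, *Acot3* and *Acot5*), and the others had at most 13 reads in any library. By edgeR's quasi-likelihood test, 7 of the 43 tested genes (16.3%) had an adjusted p under 0.05, against 7.36% of all genes tested. Among them, 6 were higher in si-*Snhg18* (*Acaca*, *Elovl1*, *Hacd1*, *Acsl3*, *Acsl6* and *Acsbg1*, against 3.65% of all genes higher) and 1 was lower (*Elovl5*, against 3.71% of all genes lower). A change of at least 1.5-fold was also met by 5 of the 7, against 3.67% of all genes, with 4 higher (1.72% of all genes) and 1 lower (1.95%). Of the 43 log2 fold changes 23 were above 0 and 20 below, from -0.96 to 1.41, and their median of 0.01 was that of all genes tested (0.01).

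With the library number as a block, 20 of the 43 genes passed (13 higher, 7 lower), which was 46.5% against 27.2% of all genes tested. In edgeR, 13 genes passed with the block and not without it, namely *Acly*, *Fasn*, *Mlycd*, *Elovl6*, *Hacd4*, *Tecr*, *Scd2*, *Acsl4*, *Acsl5*, *Acot7*, *Acot11*, *Acot13* and *Cpt1c*. With the block 5 genes were higher and 4 lower by at least 1.5-fold, against 4.24% and 5.85% of all genes (10.1% in both directions). Leaving out single libraries changed the count in both directions. When si-NC 1, si-NC 3 or si-*Snhg18* 3 was removed, no gene of the list passed edgeR's test, and the counts over all genes were also 0. In these fits 11, 13 and 10 of the 43 genes had an unadjusted p under 0.05, against 17.2%, 18.7% and 16.8% of all genes tested. Only *Acaca* passed once si-NC 2 was removed and only *Acaca* and *Elovl5* without si-*Snhg18* 1. Over all 14531 genes tested, 156 and 325 passed in these 2 fits. Without si-*Snhg18* 2, 16 genes of the list passed (22.3% of all genes tested did). With all 6 libraries 16 of the 43 genes had an unadjusted p under 0.05 in edgeR (24.9% of all genes tested), and DESeq2 called 12 (14.6% of all genes tested), among them *Fasn*, *Elovl6*, *Acot11*, *Acot13* and *Cpt1c* of the genes that edgeR called with the block alone. The groups did not overlap for 14 of the 43 genes (32.6%), close to the 30.9% of all genes tested.

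**Figure D1:**
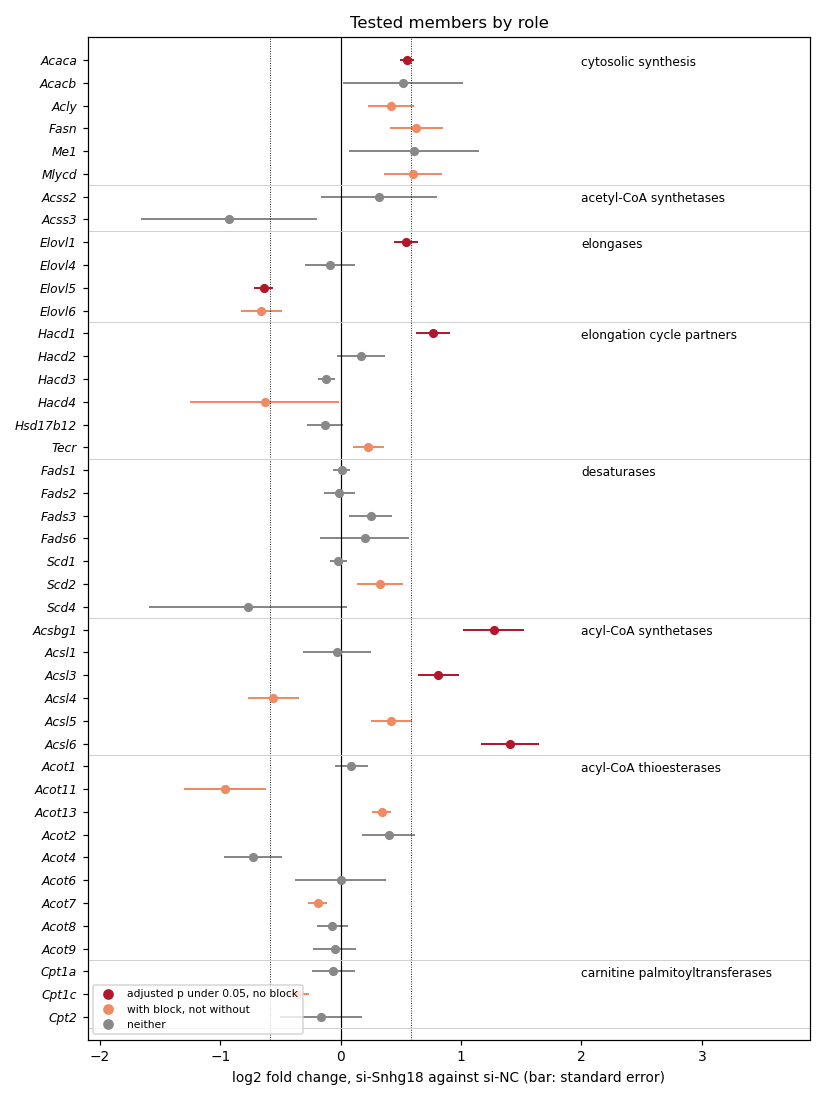
Log2 fold change of si-*Snhg18* against si-NC (x axis) for the 43 tested genes, grouped by role, with the standard error of the edgeR fit as bars and dotted lines at 1.5-fold. Dark red points had an adjusted p under 0.05 (7 genes), orange points had one with the library number as a block and not without it (13 genes). All points of cytosolic synthesis lie above 0 and all of the carnitine palmitoyltransferases below, and each other role holds points on both sides.

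All 6 genes grouped under cytosolic synthesis had a log2 fold change above 0, from 0.42 to 0.63. Of them 1, *Acaca*, rose (3.65% of all genes tested did). Of all 14531 genes tested, 7384 were above 0. The 6 include *Mlycd*, which removes malonyl-CoA, and *Acacb*, whose log2 fold change (SE 0.50) was -0.01 without si-*Snhg18* 2. With the block 4 of 6 passed (66.7%, against 27.2% of all genes tested). *Acaca*, acetyl-CoA carboxylase alpha, makes malonyl-CoA in the committed step of the pathway. The gene (ENSMUSG00000020532, chromosome 11, 84129672 to 84401651 on the plus strand of GRCm38.p6) was at 99.7, 96.6 and 99.0 CPM in si-NC and at 143, 141 and 148 CPM in si-*Snhg18*. The 3 si-*Snhg18* libraries lay close together and all above si-NC, with means of 98.4 ± 1.63 and 144 ± 3.51 CPM (SD, n = 3 per group). This was a 1.46-fold increase (log2 fold change 0.55, SE 0.06, adjusted p = 0.00851 in edgeR), and the adjusted p ran from 0.00564 to 0.0790 as each library was left out. Of the 50-base stretches of its annotated transcripts, 30.4% also occurred in other annotated genes, *Gm5182* among them, so reads from these could be divided in a way the counts do not show. *Acacb*, the carboxylase isoform tied to mitochondria, was low, at 1.40 to 1.51 CPM in si-NC and 0.791 to 3.35 CPM in si-*Snhg18*, and *Acaca* made up 98.4% of the summed FPKM of both isoforms in either group.

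*Fasn*, fatty acid synthase, was at 827, 646 and 866 CPM in si-NC and at 1445, 843 and 1327 CPM in si-*Snhg18*. The libraries numbered 2 were the lowest of each group, and si-*Snhg18* 2 fell inside the si-NC range. The log2 fold change was 0.63 (SE 0.22, adjusted p = 0.139 in edgeR), and 0.60 (SE 0.08, adjusted p = 0.00273) with the block. Within the pairs of equal number it was 0.81, 0.38 and 0.62. *Acly*, ATP citrate lyase, which supplies cytosolic acetyl-CoA, followed the same order of libraries, at 543, 402 and 561 CPM in si-NC and 793, 522 and 705 CPM in si-*Snhg18*. Its log2 fold change was 0.42 without the block (SE 0.19, adjusted p = 0.231) and with it (SE 0.06, adjusted p = 0.00369). Leaving out si-*Snhg18* 2 alone brought both genes under the threshold (adjusted p = 0.0112 for *Fasn* and 0.0403 for *Acly*).

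*Me1*, the cytosolic malic enzyme that supplies NADPH, varied widely between libraries of a group, with 198, 89.2 and 206 CPM in si-NC and 406, 97.2 and 251 CPM in si-*Snhg18*. Its log2 fold change of 0.61 (SE 0.54) did not pass with or without the block (adjusted p = 0.0593 and 0.526 in edgeR). Other annotated genes held 22.9% of the 50-base stretches of *Me1*. *Mlycd*, malonyl-CoA decarboxylase, which removes malonyl-CoA, was at 5.91, 7.19 and 6.19 CPM in si-NC and 6.65, 12.2 and 10.5 CPM in si-*Snhg18*, and passed only with the block (log2 fold change 0.57, SE 0.17, adjusted p = 0.0403). The acetyl-CoA synthetase *Acss2*, which activates acetate in the cytosol, was at 24.2, 11.1 and 26.4 CPM in si-NC and 35.9, 11.4 and 29.8 CPM in si-*Snhg18*, with the number 2 libraries again far below the others. Neither *Acss2* nor *Acss3*, the other acetyl-CoA synthetase gene tested, had an unadjusted p under 0.05 in edgeR or a call in DESeq2.

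The elongases catalyse the first, rate-limiting condensation of the elongation cycle and differ in the chains they accept. Of 4 tested elongases, 1 rose (3.65% of all genes tested did) and 1 fell (3.71% of all genes tested did). *Elovl6* was lower in edgeR with the block and not without it. *Elovl4* (6.38 to 10.1 CPM over all libraries) had a log2 fold change of -0.09 (SE 0.21). The RefSeq promoter sequences (GRCm38.p6) of the 3 elongases with opposite changes, and of 2 acyl-CoA synthetases and *Fasn* described here, are printed as the 250 bases before the annotated start, 5′ to 3′ on the strand of the gene. Capitals mark matches on either strand to the E-box CACGTG, to the letters CCAAT of the CCAAT box, to the GC box GGGCGG and to TCACNCCAC, a pattern like the sterol regulatory element (SRE).
*Elovl1*, chr4:118427843-118428092, plus strand: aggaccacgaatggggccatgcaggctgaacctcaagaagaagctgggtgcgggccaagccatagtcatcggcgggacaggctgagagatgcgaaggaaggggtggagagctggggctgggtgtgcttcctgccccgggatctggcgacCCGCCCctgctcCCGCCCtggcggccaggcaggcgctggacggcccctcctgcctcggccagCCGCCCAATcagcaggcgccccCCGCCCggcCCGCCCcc
*Elovl5*, chr9:77917115-77917364, plus strand: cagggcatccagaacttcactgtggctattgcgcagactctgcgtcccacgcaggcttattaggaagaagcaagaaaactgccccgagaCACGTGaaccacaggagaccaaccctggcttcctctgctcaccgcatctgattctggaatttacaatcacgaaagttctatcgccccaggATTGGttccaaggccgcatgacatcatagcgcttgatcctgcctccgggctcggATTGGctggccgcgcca
*Elovl6*, chr3:129532136-129532385, plus strand: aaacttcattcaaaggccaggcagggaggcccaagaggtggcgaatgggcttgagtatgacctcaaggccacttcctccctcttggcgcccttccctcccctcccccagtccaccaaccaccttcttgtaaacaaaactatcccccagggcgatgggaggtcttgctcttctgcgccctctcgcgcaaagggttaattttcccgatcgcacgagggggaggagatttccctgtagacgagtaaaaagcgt
*Acsl3*, chr1:78657575-78657824, plus strand: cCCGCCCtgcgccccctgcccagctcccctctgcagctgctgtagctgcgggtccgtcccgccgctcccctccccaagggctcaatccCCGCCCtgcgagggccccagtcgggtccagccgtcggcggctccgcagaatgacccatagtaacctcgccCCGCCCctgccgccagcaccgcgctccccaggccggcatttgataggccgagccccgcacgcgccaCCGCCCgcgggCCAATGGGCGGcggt
*Acsl4*, chrX:142390536-142390785, minus strand: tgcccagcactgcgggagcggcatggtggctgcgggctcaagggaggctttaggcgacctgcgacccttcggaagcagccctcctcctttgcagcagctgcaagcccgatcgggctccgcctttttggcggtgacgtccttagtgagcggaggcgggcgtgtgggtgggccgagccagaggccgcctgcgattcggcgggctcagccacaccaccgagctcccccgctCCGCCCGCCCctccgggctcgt
*Fasn*, chr11:120824548-120824797, minus strand: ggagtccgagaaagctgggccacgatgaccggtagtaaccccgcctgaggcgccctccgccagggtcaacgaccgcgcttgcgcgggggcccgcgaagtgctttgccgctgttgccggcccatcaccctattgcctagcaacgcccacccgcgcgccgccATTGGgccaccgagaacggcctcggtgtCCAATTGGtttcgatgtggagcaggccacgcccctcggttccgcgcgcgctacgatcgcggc

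The windows differed in the letters they held. *Elovl1*, for which the more upstream of 2 annotated starts is shown, had 5 GC boxes, the farthest with its first base 101 bases before the start, and 1 CCAAT match at 35 bases that overlaps the GC box at 39. *Elovl5* had an E-box at 161 bases and CCAAT matches at 71 and 17 bases, and *Elovl6* held none of the 4 motifs. *Acsl3* had 5 GC boxes and 1 CCAAT match, *Acsl4* 2 overlapping GC boxes, and *Fasn* 3 CCAAT matches, of which 2 overlap. Over the 43 promoters found for 37 of the 43 tested genes, CCAAT occurred in 58.1% (35.4% of the 13482 promoters of all tested genes), the GC box in 67.4% (56.8%), the E-box in 9.30% (8.23%) and the SRE-like pattern in 2.33% (1.05%). The last was a single promoter, the second start of *Acsl1*. These are matches of letters in a fixed window and not binding sites.

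*Elovl1* (ENSMUSG00000006390, chromosome 4, 118428093 to 118432953 on the plus strand of GRCm38.p6), which elongates saturated and monounsaturated chains to very long ones, was at 95.1, 82.4 and 100 CPM in si-NC and at 142, 121 and 140 CPM in si-*Snhg18*. All 3 knockdown libraries were above the highest control, with means of 92.5 ± 9.11 and 134 ± 11.2 CPM (SD, n = 3 per group). The increase was 1.45-fold (log2 fold change 0.54, SE 0.10, adjusted p = 0.0318 in edgeR), and the adjusted p ran from 0.0106 to 0.149 as each library was left out. *Elovl5* (ENSMUSG00000032349, chromosome 9, 77917364 to 77984519 on the plus strand of GRCm38.p6), which elongates polyunsaturated chains, went the other way, at 65.2, 67.7 and 65 CPM in si-NC and 39.3, 45.9 and 41.9 CPM in si-*Snhg18*. The means were 66.0 ± 1.46 and 42.4 ± 3.36 CPM without overlap, 64.2% of the control level (log2 fold change -0.64, SE 0.08, adjusted p = 0.0125 in edgeR). Its adjusted p ran from 0.00541 to 0.0891 as each library was left out.

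*Elovl6*, which takes palmitate to stearate, was at 93.3, 90.9 and 106 CPM in si-NC and at 70.6, 46.3 and 67.5 CPM in si-*Snhg18*. The groups did not overlap, and si-*Snhg18* 2 was the lowest library. The log2 fold change was -0.66 (SE 0.17, adjusted p = 0.0688 in edgeR), and -0.68 (SE 0.10, adjusted p = 0.00427) with the block. DESeq2 and the edgeR fit without a filter on low counts also called it.

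Per exon length *Elovl1* was the most abundant elongase in every library. Its share of the summed *Elovl* FPKM was 55.3%, 51.8% and 55.3% in si-NC and 72.6%, 71.6% and 72.2% in si-*Snhg18*. The share of *Elovl5* was 25.3% ± 2.2 in si-NC and 14.9% ± 2.39 in si-*Snhg18*, and that of *Elovl6* was 17.3% ± 0.694 and 9.97% ± 1.46 (SD, n = 3 per group). The summed FPKM of the family was 94.2 ± 6.05 in si-NC and 103 ± 7.96 in si-*Snhg18*, so the make-up of the family differed more between the groups than its total. These shares are descriptions without a test.

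**Figure D2:**
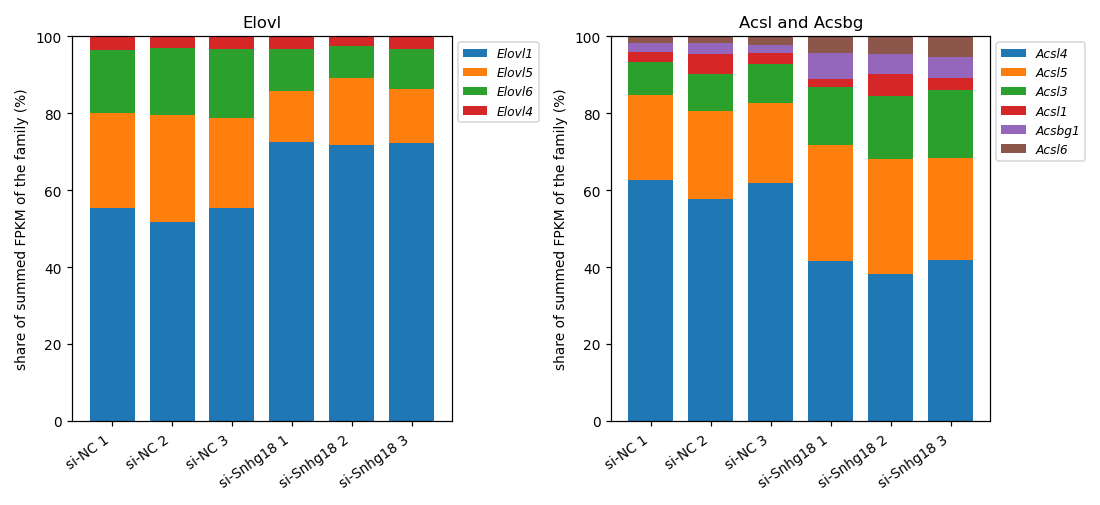
Share of the summed FPKM (y axis, percent) that each gene took in its family, by library, for the elongases (left) and the acyl-CoA synthetases (right). The *Elovl1* share was 51.8% to 55.3% in si-NC and 71.6% to 72.6% in si-*Snhg18*, and the *Acsl4* share 57.6% to 62.6% and 38.3% to 41.8%.

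Of the 6 genes for the other steps of the elongation cycle, 1 rose (3.65% of all genes tested did). With the block 3 passed (50%, against 27.2% of all genes tested). *Hacd1* (ENSMUSG00000063275, chromosome 2, 13850282 to 14056135 on the minus strand of GRCm38.p6), a 3-hydroxyacyl-CoA dehydratase first known from striated muscle, was at 29.4, 24.5 and 32.2 CPM in si-NC and at 52.7, 42.6 and 51.3 CPM in si-*Snhg18*. The groups were well apart, with a 1.70-fold increase (log2 fold change 0.77, SE 0.14, adjusted p = 0.0265 in edgeR, 0.00917 to 0.135 as each library was left out). Of its 50-base stretches, 24.9% occurred in other annotated genes. Among the *Hacd* genes its share of summed FPKM was 42.1% ± 5.15 in si-NC and 57.8% ± 5.34 in si-*Snhg18*, while that of *Hacd3* was 36.3% ± 1.22 and 26.9% ± 1.31. *Hacd3* itself differed little, with a log2 fold change of -0.12 (SE 0.07, adjusted p = 0.357 in edgeR), although its groups did not overlap (35 to 36.2 and 31.7 to 33.9 CPM).

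*Hacd4*, a further dehydratase, was at 9.84, 17.4 and 7.33 CPM in si-NC and 3.17, 14.8 and 4.38 CPM in si-*Snhg18*. The number 2 library was by far the highest of each group. Its log2 fold change was -0.63 (SE 0.62, adjusted p = 0.576 in edgeR) and, with the block, -0.82 (SE 0.25, adjusted p = 0.0487), and 11% of its exon bases overlap *Focad* on the other strand. *Tecr*, the reductase that closes the cycle, was at 168, 144 and 179 CPM in si-NC and 209, 163 and 203 CPM in si-*Snhg18* (log2 fold change 0.23 in both fits, adjusted p = 0.321 without and 0.0290 with the block). *Hsd17b12*, the ketoacyl-CoA reductase, was at 185 to 227 CPM in si-NC and 160 to 227 CPM in si-*Snhg18* (log2 fold change -0.13, SE 0.15), and *Hacd2* at 11.5 to 15.5 and 12 to 18.7 CPM.

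None of the 7 tested desaturases passed edgeR's test, none had an unadjusted p under 0.05, and DESeq2 called none. *Scd1*, a stearoyl-CoA desaturase that makes monounsaturated chains, was at 392, 375 and 407 CPM in si-NC and 406, 361 and 391 CPM in si-*Snhg18*, a log2 fold change of -0.02 (SE 0.07). *Scd2*, the isoform with the highest level in these cells, was at 1289, 1039 and 1460 CPM in si-NC and 1825, 1220 and 1730 CPM in si-*Snhg18*. Its groups overlapped through the number 2 libraries, and it passed only with the block (log2 fold change 0.33, SE 0.07, adjusted p = 0.0131, against SE 0.19 and adjusted p = 0.323 without it). Per exon length *Scd2* was at 231 FPKM and *Scd1* at 81.0 FPKM in si-NC, and *Scd2* took 73.8% ± 2.53 of the summed *Scd* FPKM in si-NC and 78.2% ± 2.78 in si-*Snhg18*.

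The front-end desaturases *Fads1* and *Fads2*, which act on polyunsaturated chains in turn with *Elovl5*, had log2 fold changes of 0.01 (SE 0.07) and -0.01 (SE 0.13). *Fads1* was at 207, 191 and 206 CPM in si-NC and 209, 196 and 205 CPM in si-*Snhg18*, and *Fads2* at 178, 145 and 184 CPM and at 182, 144 and 176 CPM. The groups overlapped for both genes. *Fads3*, which acts on sphingoid bases, had a log2 fold change of 0.25 (SE 0.18), and *Fads1*, *Fads2* and *Fads3* took 36.3%, 33.2% and 30.3% of the summed *Fads* FPKM in si-NC. *Fads6* and *Scd4* were under 2 CPM in all libraries.

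Among the acyl-CoA synthetases 3 of 6 tested genes rose (*Acsl6*, *Acsbg1* and *Acsl3*), against 3.65% of all genes tested. With the block 5 of 6 passed (27.2% of all genes tested did), adding *Acsl5* as higher and *Acsl4* as lower. *Acsl6* (ENSMUSG00000020333, chromosome 11, 54303798 to 54364756 on the plus strand of GRCm38.p6), best known from neurons, was at 8.94, 6.49 and 11.3 CPM in si-NC and at 25.3, 18.5 and 27.4 CPM in si-*Snhg18*. The lowest knockdown library was above the highest control, and the increase of 2.66-fold was the largest of the 43 tested genes (log2 fold change 1.41, SE 0.24, adjusted p = 0.0250 in edgeR, 0.00866 to 0.128 as each library was left out). *Acsbg1* (ENSMUSG00000032281, chromosome 9, 54604877 to 54661870 on the minus strand of GRCm38.p6), the bubblegum-type synthetase, was at 6.04, 5.84 and 5.89 CPM in si-NC and 19.5, 10.1 and 13.4 CPM in si-*Snhg18*. Control libraries were nearly equal and knockdown libraries spread widely above them, a 2.42-fold increase (log2 fold change 1.27, SE 0.25, adjusted p = 0.0339, 0.00675 to 0.148 as each library was left out).

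*Acsl3* (ENSMUSG00000032883, chromosome 1, 78657825 to 78707743 on the plus strand of GRCm38.p6), a synthetase of the endoplasmic reticulum and lipid droplets, was at 30.8, 26.7 and 36.6 CPM in si-NC and at 60.4, 43.9 and 60.1 CPM in si-*Snhg18*. It was 1.75-fold higher without overlap (log2 fold change 0.81, SE 0.17, adjusted p = 0.0410 in edgeR, 0.00883 to 0.173 as each library was left out). Its exons share 5.60% of their bases with *Utp14b* on the same strand. *Acsl4*, which prefers arachidonate, was at 296, 212 and 298 CPM in si-NC and at 221, 138 and 188 CPM in si-*Snhg18*. In each pair of equal number the knockdown library was lower, by log2 ratios of -0.42, -0.62 and -0.67, while the groups overlapped because si-NC 2 was under si-*Snhg18* 1. The log2 fold change was -0.56 (SE 0.21, adjusted p = 0.160 in edgeR) and, with the block, -0.57 (SE 0.07, adjusted p = 0.00163).

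*Acsl5*, found on mitochondria and the endoplasmic reticulum, was at 83.7, 68.0 and 80.7 CPM in si-NC and 130, 86.5 and 95.7 CPM in si-*Snhg18*, without overlap (log2 fold change 0.42, SE 0.17, adjusted p = 0.178, and 0.0113 with the block), and 8.31% of its exon bases overlap *Zdhhc6* on the other strand. *Acsl1*, the main synthetase of adipose tissue and heart, did not pass the test, at 9.11, 14.0 and 10.1 CPM in si-NC and 7.87, 14.9 and 9.81 CPM in si-*Snhg18* (log2 fold change -0.03, SE 0.28). *Acsl1*, *Acsbg1* and *Acsl6* were all low in si-NC, at 2.84, 2.06 and 1.53 FPKM, so the largest increases were in genes of low level. Per exon length *Acsl4* took 60.7% ± 2.67 of the summed FPKM of these genes in si-NC and 40.5% ± 1.93 in si-*Snhg18*. The shares of *Acsl5* were 22.0% ± 1.09 and 28.9% ± 2.12, of *Acsl3* 9.51% ± 0.736 and 16.4% ± 1.35, of *Acsbg1* 2.50% ± 0.360 and 5.77% ± 0.817, and of *Acsl6* 1.82% ± 0.274 and 4.84% ± 0.627. The sum was 83.5 ± 12 FPKM in si-NC and 84.8 ± 16.4 FPKM in si-*Snhg18*. The totals of the groups differed by less than their spread. The shares of these 5 synthetases did not overlap between the groups, and that of *Acsl1* did (3.53% ± 1.4 and 3.52% ± 1.87). Shares of a family add up to a fixed total, so a lower share of *Acsl4* raises the others, and these are not separate results. In CPM 4 of the 6 tested synthetases did not overlap (30.9% of all genes tested), and *Acsl4* did.

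**Figure D3:**
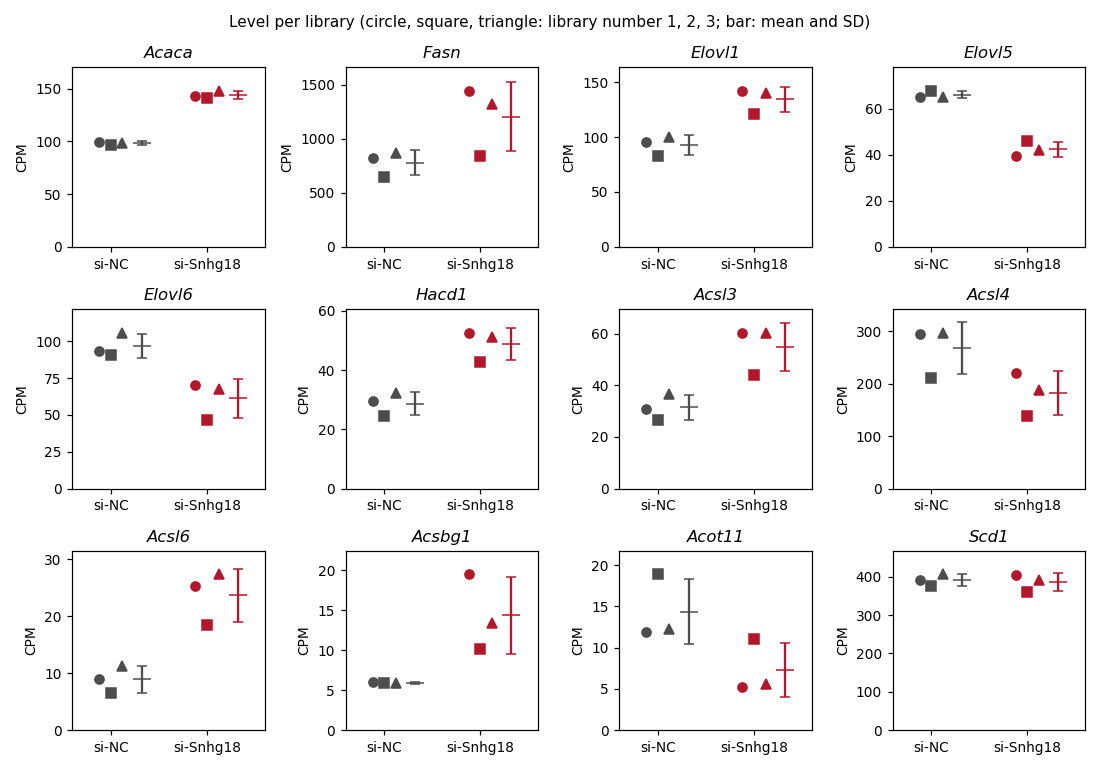
Level (y axis, CPM normalized by TMM) of 12 genes in each of the 3 si-NC and 3 si-*Snhg18* libraries, marked by library number, with the mean and SD beside them. *Acaca*, *Elovl1*, *Hacd1*, *Acsl3*, *Acsl6* and *Acsbg1* lie higher and *Elovl5*, *Elovl6* and *Acot11* lower in si-*Snhg18* without overlap, *Fasn* and *Acsl4* overlap between the groups, and *Scd1* overlaps, at 361 to 407 CPM over all libraries.

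The acyl-CoA thioesterases hydrolyse acyl-CoA to free fatty acid and CoA. None of 9 tested passed edgeR's test, 3 had an unadjusted p under 0.05 (24.9% of all genes tested did), and DESeq2 called 2 (*Acot11* and *Acot13*). With the block 3 passed (33.3%, against 27.2% of all genes tested), and DESeq2 called 14.6% of all genes tested. *Acot11*, an enzyme of thermogenic fat, was at 11.9, 18.9 and 12.3 CPM in si-NC and 5.26, 11.1 and 5.64 CPM in si-*Snhg18*. The number 2 library was the highest of each group and the groups did not overlap. Its level was 51.3% of the control (log2 fold change -0.96, SE 0.34, adjusted p = 0.148, and -1.01, SE 0.13, adjusted p = 0.00260 with the block), and 20.9% of its exon bases overlap *Fam151a* on the other strand. *Acot13*, a mitochondrial and cytosolic enzyme, was at 33.0, 33.9 and 31.4 CPM in si-NC and 44.5, 39.9 and 40.1 CPM in si-*Snhg18* (log2 fold change 0.34, SE 0.08, adjusted p = 0.0600, and 0.0190 with the block).

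*Acot7*, the thioesterase with the highest FPKM here and abundant in brain, was at 163, 144 and 162 CPM in si-NC and 145, 127 and 141 CPM in si-*Snhg18* (log2 fold change -0.19, SE 0.08, adjusted p = 0.230, and 0.0408 with the block). Its share of summed *Acot* FPKM was 44.1% ± 0.275 and 39.7% ± 0.870, and that of *Acot13* 18.8% ± 1.89 and 24.2% ± 1.14. *Acot9*, in mitochondria, took 28.2% ± 2.98 and 27.7% ± 3.28. *Acot4*, a peroxisomal enzyme, was at 3.50, 2.86 and 2.54 CPM in si-NC and 1.66, 2.08 and 1.59 CPM in si-*Snhg18*, lower without overlap, but did not pass in either fit (log2 fold change -0.73, SE 0.24, adjusted p = 0.118, and 0.0654 with the block). *Acot1* and *Acot2* are near-identical neighbours whose reads may be divided between them, with 19.2% and 27.7% of their 50-base stretches in other genes, and had log2 fold changes of 0.09 (SE 0.14) and 0.40 (SE 0.22).

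The carnitine palmitoyltransferases control entry of long chains into mitochondria. None of 3 tested passed edgeR's test. *Cpt1c* alone had an unadjusted p under 0.05 (24.9% of all genes tested) and a call in DESeq2 (14.6% of all genes tested). *Cpt1c*, the isoform of the endoplasmic reticulum best known from neurons, was at 67.5, 57.9 and 64.7 CPM in si-NC and at 45.4, 48.3 and 54.2 CPM in si-*Snhg18*. It was lower without overlap, at 77.8% of the control (log2 fold change -0.36, SE 0.10, adjusted p = 0.0811 in edgeR, and 0.0179 with the block). *Cpt1a*, the main outer membrane isoform, was at 196, 236 and 188 CPM in si-NC and 160, 250 and 184 CPM in si-*Snhg18* (log2 fold change -0.06, SE 0.18), and *Cpt2*, the inner membrane enzyme, at 19.3 to 26.3 and 12.7 to 30.8 CPM (log2 fold change -0.16, SE 0.34). *Cpt1a* took 67.7% ± 4.18 of the summed *Cpt1* FPKM in si-NC and 71.7% ± 4.6 in si-*Snhg18*, and *Cpt1c* took 32.3% ± 4.18 and 28.3% ± 4.61.

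The library number moved with many of these genes. In a description made after the values had been seen, the number 2 library was the lowest of both groups for 25 of the 43 tested genes (58.1%, against 29.8% of all genes tested) and the highest of both for 9 (20.9%, against 32.2%). The genes lowest in number 2 were 4 of 6 in cytosolic synthesis, 6 of 7 desaturases and 5 of 6 acyl-CoA synthetases, whereas 2 of 3 carnitine palmitoyltransferases were highest there. As the log2 level of library 2 minus the mean of libraries 1 and 3, *Me1* was at -1.18 in si-NC and -1.71 in si-*Snhg18*, *Acss2* at -1.18 and -1.51, and *Fasn* at -0.39 and -0.72. *Hacd4* was at 1.03 and 1.96, *Acot11* at 0.64 and 1.01, and *Cpt2* at 0.39 and 1.12. For *Me1*, *Acss2*, *Hacd4* and *Cpt2* these differences between libraries of a group were larger in size than the log2 fold change without the block. For *Fasn* and *Acot11* this held in si-*Snhg18* only. What distinguishes the number 2 libraries was not tested.

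**Figure D4:**
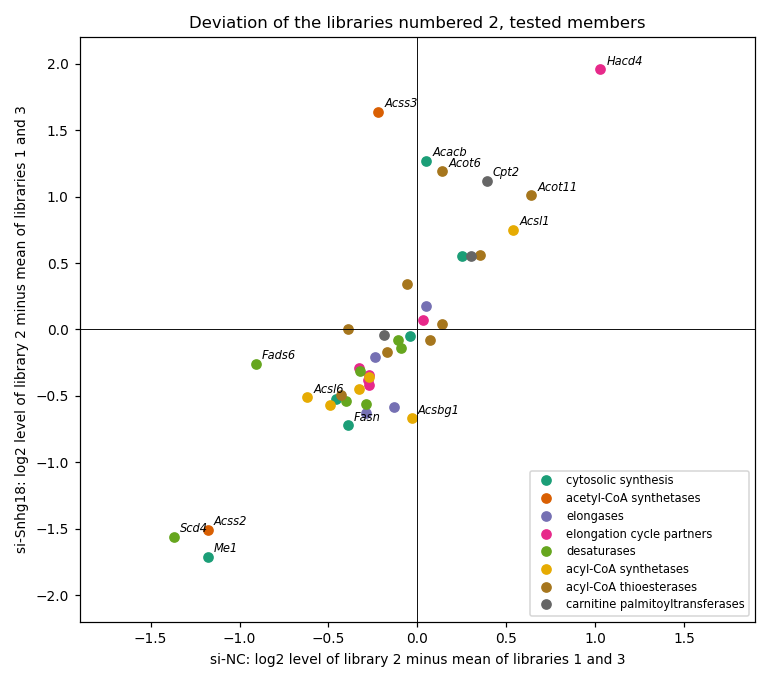
Log2 level of library 2 minus the mean of libraries 1 and 3 (pseudocount 0.1 CPM) in si-NC (x axis) and in si-*Snhg18* (y axis) for the 43 tested genes, coloured by role. *Me1* (-1.18, -1.71) and *Acss2* (-1.18, -1.51) lie at the lower left and *Hacd4* (1.03, 1.96) at the upper right.

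Over the pairs of equal number, 17 of the 43 genes were higher in all 3 pairs (39.5%, against 29.6% of all genes tested) and 11 were lower in all 3 (25.6%, against 30.0%).

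Other genes of fatty acid metabolism were listed by hand, and 103 of 116 were tested. Of these, 6 passed (5.83%, against 7.36% of all genes tested), 3 higher and 3 lower, and with the block 36 passed (35%, against 27.2%), 22 higher and 14 lower. DESeq2 called 20. Among 21 lipogenic regulators 3 passed. *Insig1*, which holds SREBP precursors in the endoplasmic reticulum and is itself an SREBP target, was at 152, 143 and 155 CPM in si-NC and 103, 82.5 and 89.4 CPM in si-*Snhg18* (log2 fold change -0.71, SE 0.10, adjusted p = 0.0145 in edgeR). *Scap*, the escort of SREBPs to the Golgi, was at 145, 161 and 148 CPM in si-NC and 186, 195 and 190 CPM in si-*Snhg18* (log2 fold change 0.33, SE 0.07, adjusted p = 0.0377). Neither pair of groups overlapped, and *Insig1* and *Scap* went in opposite directions.

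*Mlxip*, a glucose-sensing transcription factor of the carbohydrate response family, was at 76.5, 71.7 and 77.1 CPM in si-NC and 105, 89.5 and 95.6 CPM in si-*Snhg18* (log2 fold change 0.37, SE 0.08, adjusted p = 0.0470 in edgeR). The SREBP genes had small differences without overlap, with *Srebf1* at 107 to 117 and 120 to 140 CPM (log2 fold change 0.19, SE 0.08, adjusted p = 0.202) and *Srebf2* at 284 to 302 and 315 to 344 CPM (log2 fold change 0.16, SE 0.07, adjusted p = 0.189). With the block 8 of 21 regulators passed (38.1%, against 27.2% of all genes tested), and DESeq2 called 5 (14.6% of all genes tested). In beta-oxidation 1 of 29 genes passed, *Decr2*, a peroxisomal dienoyl-CoA reductase, at 25.2, 26.3 and 24.4 CPM in si-NC and 10.5, 17.4 and 13.5 CPM in si-*Snhg18* (log2 fold change -0.87, SE 0.19, adjusted p = 0.0427). With the block 9 passed, 5 higher and 4 lower (31%, near the 27.2% of all genes tested), and DESeq2 called 6.

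In fatty acid uptake and binding 1 of 11 passed, *Acbd3*, an acyl-CoA binding domain protein of the Golgi, at 107 to 117 CPM in si-NC and 88.8 to 90.8 CPM in si-*Snhg18* (log2 fold change -0.30, SE 0.06, adjusted p = 0.0421 in edgeR). In this list 3 passed with the block (27.3%, about the 27.2% of all genes tested) and 3 in DESeq2 (14.6% of all genes tested). In glycerolipid synthesis 1 of 20 passed, *Agpat3*, an acyltransferase for phosphatidic acid, at 121 to 136 CPM in si-NC and 168 to 186 CPM in si-*Snhg18* (log2 fold change 0.45, SE 0.08, adjusted p = 0.0248). Of the 20, 7 passed with the block (35%, against 27.2% of all genes tested) and 2 in DESeq2. None of 11 genes for citrate and NADPH supply and none of 11 for lipolysis and lipid droplets passed edgeR's test, where 2 of each list had an unadjusted p under 0.05 (24.9% of all genes tested) and DESeq2 called 2 of each. With the block 5 and 4 of them passed (45.5% and 36.4%, against 27.2% of all genes tested). Removing any si-NC library or si-*Snhg18* 3 took these 6 calls to 0, removing si-*Snhg18* 1 took them to 1, and removing si-*Snhg18* 2 took them to 24. The counts over all genes moved in the same way. They were 0, 156 and 0 without si-NC 1, 2 and 3, and 0 without si-*Snhg18* 3. Without si-*Snhg18* 1 the count was 325, and without si-*Snhg18* 2 it was 3246 (22.3% of all genes tested).

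Markers of other cell types were measured in the same libraries. Of 7 adipocyte markers, *Adipoq* had at most 8 reads, *Plin1* at most 3 and *Lep* at most 1 in any library, 1 was at 0 throughout, and 6 of 7 stayed under 20 reads (*Fabp4*, *Plin1* and *Cidec* are also in the lists of fatty acid metabolism). The summed level of the list, 9.84 to 21.4 CPM in si-NC and 23.8 to 67.7 CPM in si-*Snhg18*, was almost entirely *Fabp4*, a fatty acid binding protein, at 21.1, 9.64 and 20.3 CPM in si-NC and 67.7, 23.8 and 55.0 CPM in si-*Snhg18* (log2 fold change 1.52, SE 0.45, adjusted p = 0.0985, and 0.000504 with the block in edgeR). Endothelial markers summed to 12.5 to 14.0 and 13.4 to 15.4 CPM, mostly *Cdh5* (9.64 ± 0.221 and 9.99 ± 0.989 CPM), with *Pecam1* at 14 reads or fewer and 1 of 7 at 0. *Tek* was at 0.593 to 1.31 and 0.219 to 0.384 CPM (log2 fold change -1.47, SE 0.44, adjusted p = 0.1, and 0.0341 with the block) and *Kdr* at 0.389 to 0.805 and 0.658 to 1.88 CPM (log2 fold change 1.04, SE 0.49, adjusted p = 0.247). Epithelial markers summed to 7.24 to 22.7 and 1.19 to 7.42 CPM, with 2 of 6 at 0 and 5 of 6 under 20 reads. This sum was almost entirely *Krt18* (12.1 ± 8.68 and 3.50 ± 3.32 CPM, log2 fold change -1.78, SE 0.79, adjusted p = 0.226, and 0.00216 with the block). Fibroblast markers summed to 485 to 560 and 355 to 464 CPM, mostly *Pdgfra* (log2 fold change -0.34, SE 0.14, adjusted p = 0.189, and 0.0112 with the block). *Dcn*, of the same list, had a log2 fold change of 0.06 (SE 0.13). Leukocyte markers summed to 113 to 157 and 71.9 to 113 CPM, with *Ptprc* at 8 reads or fewer and 2 of 8 at 0. Within this list *Cd53* fell (109 ± 12.2 and 50.7 ± 0.359 CPM, log2 fold change -1.10, SE 0.10, adjusted p = 0.00727), whereas *Cd14* was at 24.5 ± 11.6 and 36.9 ± 18.7 CPM (log2 fold change 0.59, SE 0.54, adjusted p = 0.539, and 0.00369 with the block). Of 6 smooth muscle markers 1 passed (7.36% of all genes tested did). This was *Tagln*, which fell (684 ± 6.88 and 481 ± 70.3 CPM, log2 fold change -0.51, SE 0.11, adjusted p = 0.0427 in edgeR). With the block 3 of the 6 were lower, against 13.6% of all genes tested. *Myh11* and *Cnn1* had log2 fold changes of -0.60 (SE 0.32) and -0.48 (SE 0.13). The groups overlapped for *Acta2* (-0.22, SE 0.23), *Lmod1* (-0.23, SE 0.41) and *Smtn* (0.00, SE 0.07). The part of these marker levels in the differences of the fatty acid genes was not tested.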

How the data were processed

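Libraries of mPASMCs (3 with si-NC, 3 with si-*Snhg18*) were made by the authors with the TruSeq Stranded mRNA kit, after Trizol extraction and a check of RNA quality. The deposited table gives read counts, as whole numbers and not normalized, for each gene, with exon lengths and positions on GRCm38.p6. The processing notes in the labels name HISAT2 and mm10. The counting program, its strand setting and its treatment of shared reads were not given in the sources used here, so reads of related or overlapping genes may be divided unevenly. Groups and library numbers were taken from the sample titles.

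The analysis used edgeR 4.0.16 and limma 3.58.1 under R 4.3.3. Genes were kept by filterByExpr (minimum count 10), normalized by TMM and compared over all 6 libraries by the quasi-likelihood test (glmQLFit, glmQLFTest). P-values were adjusted by Benjamini-Hochberg over 14531 genes, with a threshold of 0.05. The common biological coefficient of variation was 0.218. Standard errors were derived from the fold change and the F statistic. CPM and FPKM were computed from the counts with TMM factors and the deposited exon lengths. The deposited length of *Tecr* (378 bases) was 0.173 of its annotated exons in GENCODE. Those of *Acss2* (0.283), *Acsl1* (0.372), *Hacd4* (0.405), *Acot11* (0.485) and *Cpt1c* (0.498) were also short, so their FPKM may be too high. This ratio varied among other genes too, such as *Acaca* (0.557), *Cpt1a* (0.565), *Acsl6* (0.585), *Elovl1* (0.664) and *Elovl6* (0.925). FPKM levels and shares compared between genes carry this limit. Floors of 3 reads cover counting error only. A two-sided exact permutation test of 3 against 3 libraries has a smallest p of 0.1.

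Pairs of equal number were formed from the library numbers in the titles, which state no pairing between the groups. Deviations from the group means correlated at r = 0.41, 0.742 and 0.359 between libraries of equal number, over genes. Deviations cancel within a group, so these values are not separate signs of pairing. Libraries of unequal number also correlated, si-NC 3 with si-*Snhg18* 1 (0.497) and si-NC 1 with si-*Snhg18* 3 (0.186). As no source states whether cultures were shared, a fit with the number as a block was run beside the fit without it. The other alternatives were RLE factors, library totals, no filter on low counts, DESeq2 1.42.0 with and without the block, and leaving out each library in turn. The tests were tried on simulated data first.

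The 54 genes, the lists and the markers were chosen with earlier results of these data known. Values per library and full statistics were given for genes that passed with or without the block, or that were at least 1.5-fold apart without overlap, and up to 3 genes of the highest FPKM per role were named. Genes of other lists were named when they passed without the block. *Acss2*, *Me1*, *Fabp4*, *Srebf1*, *Srebf2* and other genes outside this rule were named after their values were seen. Promoters came from RefSeq (GRCm38.p6), with 45 of 54 genes matched. Shared stretches of 50 bases were counted over GENCODE transcripts.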

Additional observations from a re-analysis of the deposited data

How the results depend on the processing

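All 7 genes of the list that passed kept their call with the block, with RLE factors, with library totals, without a filter on low counts and under both DESeq2 fits, and the median of all genes moved by at most 0.02 on the log2 scale. Over all genes the main count was 1069, against 3954 with the block, 2124 with DESeq2, 3166 with DESeq2 and the block, and 0 to 3246 as each library was left out. For the list (7) these were 20, 12, 17 and 0 to 16. Its higher calls (6) were 13 with the block, 11 with DESeq2 and the block, and 0 to 11 without single libraries. The lower calls (1) were 7 with the block, 2 without the filter, 4 with DESeq2, 6 with DESeq2 and the block, and 0 to 5. Calls of at least 1.5-fold (5) were 9 with the block, against 8 and 9 for DESeq2 without and with it, and 0 to 10. For the other genes of fatty acid metabolism (6) the counts were 36 with the block, 3 without the filter, 20 and 29 with DESeq2 without and with the block, and 0 to 24. *Snhg18* ranged from -1.14 to -1.06 and passed in 3 of 6 fits that left out a library. Beside the genes named above, the block changed no other call of the list. Most fits that left out a library had fewer calls, and they also had fewer libraries, whereas si-*Snhg18* 2 left out gave more calls than all 6 libraries, and the cause was not tested.

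Only genes that did not pass changed sign. *Acot6* was at -0.09 with the block, -0.01 without the filter and -0.10 with DESeq2 and the block. As each library was left out, log2 fold changes ranged from -0.01 to 0.91 for *Acacb*, -0.03 to 0.16 for *Acot1*, -0.54 to 0.22 for *Acot6*, -0.18 to 0.09 for *Acot9*, -0.33 to 0.18 for *Acsl1*, -0.01 to 0.68 for *Acss2*, -0.27 to 0.07 for *Cpt1a*, -0.64 to 0.08 for *Cpt2*, -0.21 to 0.10 for *Elovl4*, -0.02 to 0.04 for *Fads1*, -0.11 to 0.08 for *Fads2*, -0.07 to 0.39 for *Fads6*, -0.03 to 0.31 for *Hacd2* and -0.06 to 0.03 for *Scd1*.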

Other observations

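Among the genes of fatty acid handling listed beside the main list, several with large differences passed in edgeR with the library number as a block and not without it. These genes were chosen after their values were seen. *Fabp5*, a fatty acid binding protein, was at 73.6, 40.0 and 71.1 CPM in si-NC and 196, 57.6 and 169 CPM in si-*Snhg18* (log2 fold change 1.19, SE 0.47, adjusted p = 0.177 in edgeR, and 0.00328 with the block). *Lpin2*, a phosphatidate phosphatase, was at 57.8, 30.0 and 62.2 CPM and at 138, 38.7 and 113 CPM (log2 fold change 0.95, SE 0.49, adjusted p = 0.286, and 0.00662 with the block). *Idh1*, the cytosolic isocitrate dehydrogenase that makes NADPH, was at 318, 166 and 352 CPM and at 701, 239 and 520 CPM (log2 fold change 0.80, SE 0.43, adjusted p = 0.307, and 0.00475 with the block). All 3 also passed without si-*Snhg18* 2 (adjusted p = 0.0113, 0.0257 and 0.0457), and DESeq2 called *Fabp5* (adjusted p = 0.04). In all 3 genes the number 2 library was the lowest of each group, as it was for *Fasn*, *Acly* and *Me1*.

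*Plin2*, the main lipid droplet coat protein of cells outside adipose tissue, was at 542, 488 and 520 CPM in si-NC and 732, 601 and 681 CPM in si-*Snhg18*, without overlap (log2 fold change 0.38, SE 0.09, adjusted p = 0.0606 in edgeR, and 0.00374 with the block). *Plin3* and *Plin4*, other members of that family, were lower with the block (adjusted p = 0.0153 and 0.00992) at log2 fold changes of -0.42 and -0.73 without it. *Slc25a10*, the mitochondrial dicarboxylate carrier, was at 49.1, 37.8 and 51.0 CPM in si-NC and 35.3, 25.9 and 33.9 CPM in si-*Snhg18* (log2 fold change -0.54, SE 0.16, adjusted p = 0.107, and 0.00286 with the block).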
